A study of Mus musculus with 8 samples.

Results

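The small proline-rich protein genes Sprr1a, Sprr2a1, Sprr2a2 and Sprr2a3 were examined in intestinal epithelial cells (IECs) of mice with and without CD1d (IECs are the absorptive and secretory lining cells). CD1d displays lipids at the cell surface, where natural killer T (NKT) cells recognise them. They were found by gene symbol and are 4 of the 25239 genes in the count table. The genes were chosen with their values in this comparison known, so their differences between genotypes are given as a description, without a test. Of the 4, only Sprr2a3 was counted above a floor of 3 reads in every sample. Sprr1a was at or under that floor in 7 of 8 samples, and Sprr2a1 and Sprr2a2 could not be counted at all.

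Bulk RNA sequencing covered 4 CD1d-KO samples (labelled CD1d1/2 KO, a germline loss in every cell of the mouse, which also leaves it without NKT cells) and 4 wild-type (WT) samples. Both held cells, with no treatment given, from crypts of the proximal small intestine, sorted as positive for EpCAM and negative for the leukocyte, endothelial and erythroid proteins CD45, CD31 and Ter119. The samples came from 2 experiments, but the experiment, age and sex of each sample are not given in the sources used here. The study's methods give 4 mice of each genotype for these samples, so the replicates are mice.

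Sprr genes encode short proteins rich in proline that transglutaminases cross-link into the cornified envelope, the tough layer under the membrane of squamous cells. They lie in the epidermal differentiation complex, a cluster of genes for the outer skin barrier that also holds loricrin, filaggrin, the late cornified envelope genes and many S100 genes. Outside the skin, Sprr genes are known to be induced in stressed or regenerating epithelia, and Sprr2a is known in the mouse intestine as a gene raised by gut bacteria and by type 2 cytokines, whose product acts against Gram-positive bacteria.

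The coding sequences show how alike the 3 Sprr2a copies are and are printed for that reason. They were read from the GRCm39 genome and its GENCODE annotation, on the plus strand of chromosome 3. Sprr2a1 (chr3:92126399-92126650) and Sprr2a2 (chr3:92161212-92161463) had the same 252 coding bases, with 0 differences, so only the first is shown beside Sprr2a3 (chr3:92195895-92196146). Capitals mark the bases that differ between the lines.
Sprr2a1: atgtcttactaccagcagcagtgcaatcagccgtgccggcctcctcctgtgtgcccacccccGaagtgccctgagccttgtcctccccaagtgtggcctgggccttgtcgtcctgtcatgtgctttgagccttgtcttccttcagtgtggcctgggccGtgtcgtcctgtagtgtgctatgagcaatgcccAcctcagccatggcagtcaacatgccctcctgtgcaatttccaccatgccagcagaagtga
Sprr2a3: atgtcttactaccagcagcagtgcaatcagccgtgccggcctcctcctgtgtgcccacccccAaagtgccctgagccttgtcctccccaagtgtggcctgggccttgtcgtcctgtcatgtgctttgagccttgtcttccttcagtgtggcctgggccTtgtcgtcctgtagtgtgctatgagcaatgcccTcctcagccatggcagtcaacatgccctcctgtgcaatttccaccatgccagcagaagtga
The copies differed at 3 of 252 bases (98.8% identity). Each of the 3 differences lay in a codon that reads proline in both copies, so all 3 genes encode the same amino acids. Of 83 codons, 26 (31.3%) were for proline. Sprr1a is a different family member with a longer coding sequence (435 bases with the stop codon, minus strand), in which 46 of 144 codons (31.9%) were for proline. Its codons 24 to 55 (chr3:92391835-92391930, GRCm39) hold 13 proline codons, in capitals, and show the repeat that gives the family its name.
Sprr1a: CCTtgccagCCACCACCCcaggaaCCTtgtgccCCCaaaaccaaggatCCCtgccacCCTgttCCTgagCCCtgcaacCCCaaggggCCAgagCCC

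The same likeness decided what could be counted. The deposited table, whose coordinates are mm10, gave Sprr2a1 and Sprr2a2 an identical set of 4 exons, 7094 bases in all, between 92215835 and 92257304 of chromosome 3. Those exons cover both loci. A read pair there overlapped 2 genes at once, and such pairs were not assigned to either. In the whole table, 97 sets of genes (232 genes) shared all their exons in this way and 0 of the 232 had a single count, against 23.7% of the other genes at 0 in every sample. The 0 of Sprr2a1 and Sprr2a2 in all 8 samples therefore says nothing of their expression, and no upper limit was drawn from it.

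Sprr2a3 was listed with exons of its own, 156 and 696 bases, between 92285304 and 92289264 on the plus strand, and overlapped no other gene. Its reads could still be shared with the other copies. Of the 100-base stretches of its shorter annotated transcript (682 bases), 16.6% occurred exactly in a Sprr2a1 or Sprr2a2 transcript. The share was 36.2% for its longer transcript (2880 bases). Between Sprr2a1 and Sprr2a2 the share was 93.1%. A pair that fits several places was kept at its primary alignment, so the Sprr2a3 count may hold reads of the other copies or lack some of its own. Adding the 3 copies together changed nothing, because 2 of them were at 0.

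Cd1d1, the targeted gene, was covered by 8, 3, 5 and 0 reads in the 4 CD1d-KO samples, and WT samples 1 to 4 held 81, 70, 94 and 50, which matches the labels. CD1d-KO samples held between 29743061 and 31629435 counts in total, and WT samples between 23610266 and 29763051. CD1d-KO samples 1 and 2 carried the Y-linked transcript Ddx3y (1720 and 2050 normalised counts), and the other 6 samples had at most 1.05. Xist, a transcript of female cells, had 67.9 and 50.5 normalised counts in CD1d-KO samples 1 and 2 and 22000 to 35400 in the other 6. By these transcripts CD1d-KO samples 1 and 2 were male and all others female. Sex was thus not balanced between the genotypes here, although the paper's methods state that it was matched.

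Sprr2a3 was lower in CD1d-KO IECs. CD1d-KO samples 1 to 4 held 32, 23, 28 and 30 reads, whereas WT samples 1 to 4 held 99, 99, 122 and 68. After scaling for depth the CD1d-KO values were 28.6, 21.9, 27.4 and 28.8 normalised counts, and the WT values were 97.2, 104, 118 and 83.1. Every WT sample was above every CD1d-KO sample, and the lowest WT value was 2.89 times the highest CD1d-KO value. The groups did not overlap for 9.76% of the 14718 genes tested, and nothing is read from this for a gene chosen on the same contrast.

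The mean normalised count of Sprr2a3 was 26.7 ± 3.24 (SD, n = 4) in CD1d-KO and 101 ± 14.6 (SD, n = 4) in WT, a WT level 3.77 times that of CD1d-KO. The fitted log2 fold change was -1.92 ± 0.23 (SE). The coefficient of variation was 12.1% in CD1d-KO, where the counting error of 1 sample averages 18.8%, and 14.5% in WT, where it averages 10.2%. Summed over 4 samples, 113 reads (95% exact Poisson interval 93.1 to 136) stood against 388 (350 to 429). These intervals cover counting error only.

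The level of Sprr2a3 was modest. In TPM, the share of transcripts corrected for exon length and depth, its mean was 2.6 in CD1d-KO and 9.82 in WT. Its mean over all samples, 6.21 TPM, was above that of 31.4% of the genes tested. That rank covers its 852 listed exon bases, while its longer annotated transcript has 2880. Pairs over the Sprr2a1 and Sprr2a2 exons were not assigned, so the level of the 3 copies together is not known. In CD1d-KO samples 3 and 4 alone, the ones without Y-linked counts, against the 4 WT samples, the log2 fold change was -1.84 ± 0.32 (SE).

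Sprr1a, a cross-linked envelope precursor known as a marker of stressed and regenerating epithelium, was barely detected. It lies on the minus strand at 92483954 to 92485881 (mm10), with exons of 758 and 32 bases. CD1d-KO samples 1 to 4 held 2, 2, 0 and 0 reads, whereas WT samples 1 to 4 held 6, 3, 3 and 1. The groups overlapped, and only WT sample 1 exceeded the floor of 3. Normalised counts averaged 0.923 ± 1.07 (SD, n = 4) in CD1d-KO and 3.29 ± 1.93 (SD, n = 4) in WT. The 4 and 13 reads in all had 95% exact Poisson intervals of 1.09 to 10.2 and 6.92 to 22.2. With 7 of 8 samples at or under the floor, no fold is given. In TPM the means were 0.0997 and 0.347, far below those of Sprr2a3.

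**Figure D1:**
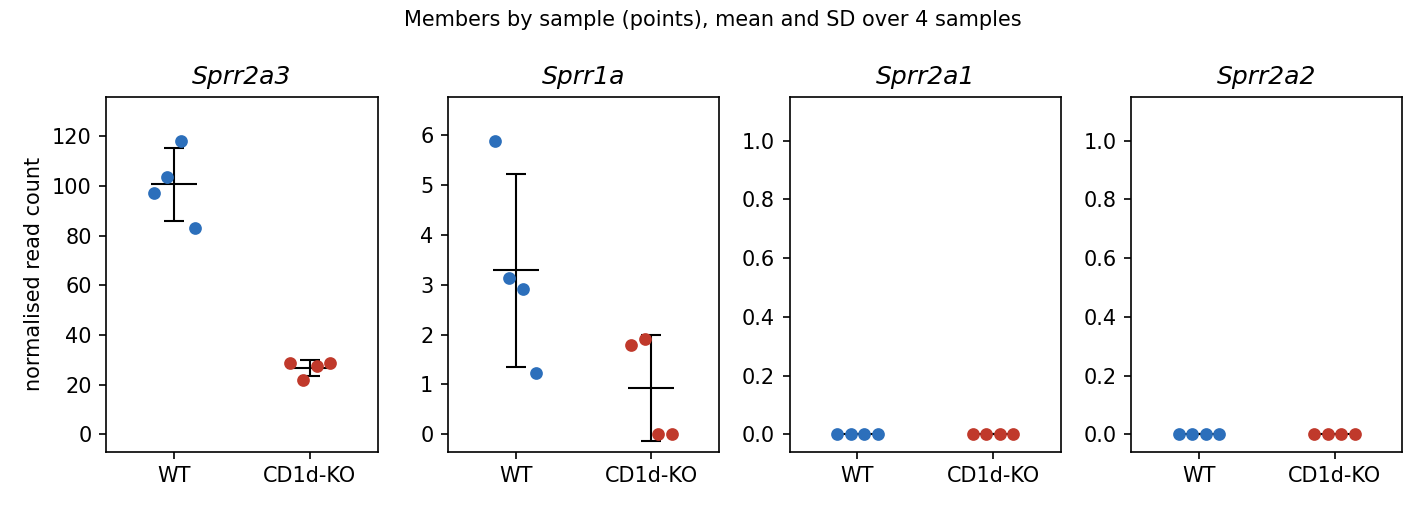
Normalised read counts (y axis, a separate scale in each panel) of the 4 genes in WT (blue) and CD1d-KO (red) samples. Points are samples, and bars are the mean and SD of 4. Sprr2a3 separates the genotypes (83.1 to 118 against 21.9 to 28.8), Sprr1a overlaps between them, and Sprr2a1 and Sprr2a2 are at 0 because their exons are listed for both genes.

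The rest of the family was almost silent. The table lists 16 Sprr genes within 285 kb, and 13 had no read in any sample. Apart from Sprr2a1 and Sprr2a2, 11 of those 13 overlap no other gene, so a read there could have been counted. They include Sprr1b, Sprr3 and Sprr4, which are typical of squamous linings. Sprr2b had 1 read in WT sample 1, 2 in WT sample 3 and 0 in the others. Sprr5 was not analysed here.

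**Figure D2:**
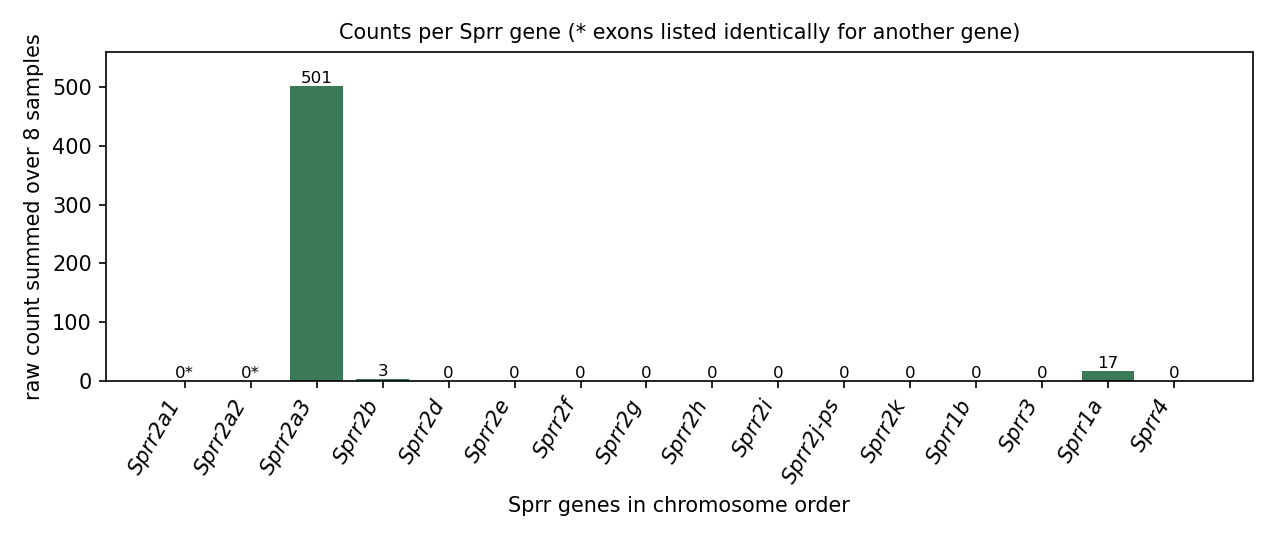
Raw counts summed over the 8 samples (y axis) for the 16 Sprr genes in chromosome order. Sprr2a3 holds 501 reads, Sprr1a 17 and Sprr2b 3. Asterisks mark the pair whose exons are listed identically.

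Upstream sequence was compared because the copies differ in what is counted. Windows of 300 bases around each start site were taken from RefSeq (GRCm38.p6), in which 14 Sprr genes were found. The Sprr2a1 and Sprr2a2 windows were identical. The Sprr2a3 window began 28 bases further upstream and then matched them at all 272 bases that could be compared. The 250 bases before the start of Sprr2a3 (chr3:92285054-92285303, plus strand) and of Sprr1a (chr3:92485882-92486131, minus strand) are shown 5′ to 3′, with matches to the motifs below in capitals.
Sprr2a3: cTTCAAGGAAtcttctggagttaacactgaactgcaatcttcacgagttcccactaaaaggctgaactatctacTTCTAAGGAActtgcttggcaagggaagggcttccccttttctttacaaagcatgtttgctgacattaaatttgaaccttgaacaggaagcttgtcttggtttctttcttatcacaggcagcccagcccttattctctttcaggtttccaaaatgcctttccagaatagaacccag
Sprr1a: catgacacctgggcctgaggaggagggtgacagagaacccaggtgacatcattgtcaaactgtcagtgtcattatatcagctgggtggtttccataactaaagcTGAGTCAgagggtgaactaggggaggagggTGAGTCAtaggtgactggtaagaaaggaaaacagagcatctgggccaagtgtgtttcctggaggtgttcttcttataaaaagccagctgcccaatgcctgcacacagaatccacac

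Both strands of the 250 upstream bases were searched for 4 short motifs. The AP-1 motif TGANTCA, bound by Fos and Jun dimers, occurred in 9 of 14 Sprr promoters and in 6.7% of all 32851 promoters. Sprr1a had 2 matches, and the 3 Sprr2a copies had 0. A STAT motif of TTC, any 4 bases and GAA, the spacing known for STAT6, occurred in all 3 Sprr2a copies, in no other Sprr promoter and in 5.9% of all promoters. TTCNNNGAA, the spacing known for the other STATs, occurred in Sprr2a3 and in 7.0% of all promoters. That match lies in the 28 bases that the windows of the other copies do not reach. The interferon motif, GAAA, any 2 bases and GAAA, was in 0 of 14 Sprr promoters and 3.0% of all. A match is a run of letters and was not tested as a binding site.

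Genes listed as regulators of Sprr genes, mostly transcription factors, were compared between the genotypes as a list. Whether each of them acts on Sprr genes was not tested. DESeq2 tested 14718 genes and called 624 at an adjusted p under 0.05 (4.24%), of which 365 were lower in CD1d-KO (2.48%). Of 24 listed regulators 23 were tested, 1 rose and 3 fell, and their median log2 fold change was -0.10, beside 0 over all genes tested. Stat3, which relays IL-6 and IL-22 signals, had 2980 ± 155 normalised counts in WT and fell to 2320 ± 190 (SD, n = 4), a log2 fold change of -0.36 ± 0.08 (SE) with an adjusted p of 0.000289 by DESeq2. Irf1, an interferon-induced factor, fell from 7020 ± 390 to 5570 ± 425 (-0.33 ± 0.07, adjusted p = 0.000443). Ehf, an epithelial ETS factor, rose from 8280 ± 320 to 9720 ± 509 (0.23 ± 0.06, adjusted p = 0.00537). Ehf was called under 12 of 17 alternative settings, not by edgeR (adjusted p = 0.0956) nor without CD1d-KO sample 2 or WT sample 2. The remaining call was Il6st, the shared receptor chain for IL-6 family cytokines, at -0.25 ± 0.07 (adjusted p = 0.00941). It was named after its values were seen.

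The other regulators did not pass the test. Fos had a log2 fold change of 0.08 ± 0.15 (SE), Jun of -0.14 ± 0.30 and Stat6 of 0.02 ± 0.05. Without CD1d-KO samples 1 and 2, none of the list passed, and Stat3 and Irf1 had adjusted p of 0.083 and 0.0647 by DESeq2.

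The partners of Sprr proteins in the envelope were examined next. Of 51 other genes listed for the epidermal differentiation complex 50 were in the table, and 34 of these had no read, among them involucrin (Ivl), Flg2 and most late cornified envelope genes. Only 8 were tested, most of them S100 calcium-binding proteins, of which 2 fell and 0 rose (median log2 fold change -0.30). S100a16 fell from 843 ± 54 to 645 ± 53.6 (SD, n = 4; -0.39 ± 0.09 SE, DESeq2 adjusted p = 0.00109), with no overlap between the groups. S100a14 fell from 150 ± 46 to 86.3 ± 11.1 (-0.80 ± 0.23, adjusted p = 0.0159), with overlap. S100a14 was called under 9 of 17 alternative settings, and neither was called without CD1d-KO samples 1 and 2 (adjusted p of 0.182 for S100a16 by DESeq2).

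Loricrin (Lor), the main envelope protein of skin, had 9 reads in CD1d-KO and 8 in WT. Trichohyalin (Tchh), a hair follicle and tongue envelope protein, had 18.8 ± 7.15 and 21.4 ± 4.37 normalised counts (SD, n = 4) and did not pass the test. Of 18 envelope assembly genes outside the complex 13 were tested and 2 fell, with a median of -0.08. Tgm2, a transglutaminase, fell from 8860 ± 132 to 7140 ± 1010 (-0.31 ± 0.09 SE, DESeq2 adjusted p = 0.0235). The other transglutaminases of the list were scarce. Tgm1 (-0.62 ± 0.71 SE) and Tgm5 (0.62 ± 0.76) did not pass the test. They averaged 7.528 and 5.27 normalised counts over all samples, and Tgm3, at 0.6154, was not tested. Anxa1, a calcium-binding envelope protein, fell from 29 ± 31 to 5.01 ± 3.91 (-2.54 ± 0.75, adjusted p = 0.0228). Tgm2 was called under 7 and Anxa1 under 10 of 17 alternative settings. The junction and envelope genes Dsp, Jup, Evpl, Ppl and Pkp1 to Pkp3 did not pass.

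Squamous cells, as of the forestomach, were looked for through 20 markers. Krt5, Krt6a, Krt16 and Krt17 had 0 reads in every sample, and 5 markers were tested with none called. The 5 were Krt10 (mean of 117.5 normalised counts over all samples), Sbsn (68.07), Krt15 (67.52), Col17a1 (17.55) and Krt4 (13.55). The summed level of the list was 11.8 to 13.7 TPM in CD1d-KO and 9.89 to 14 in WT, which overlap. The epithelial identity list, with Epcam, Vil1 and Cdx2, had 11 of 11 genes tested and none called.

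Other cell markers did move with the genotype. The summed level of 18 stomach genes was 69.8 to 149 TPM in CD1d-KO and 220 to 1330 in WT samples, and of 15 tested 7 fell and 1 rose, with a median log2 fold change of -4.35. Muc6, a gland mucin, fell from 638 ± 448 to 196 ± 38.9 (SD, n = 4; -1.70 ± 0.47 SE, DESeq2 adjusted p = 0.0131). Vsig1 fell from 109 ± 113 to 5.48 ± 6.6 (adjusted p = 0.00261) and Anxa10 from 172 ± 166 to 4.79 ± 7.73 (adjusted p = 0.0059). Muc6 was called under 12, Vsig1 under 15 and Anxa10 under 13 of 17 alternative settings. Muc6 was not called with the replicate block or without CD1d-KO sample 2 or 3, and Anxa10 was not called without WT sample 3 or 4. Of 12 leukocyte genes tested, 4 fell and 0 rose. The summed level of 15 leukocyte genes was 47.7 to 560 TPM in CD1d-KO and 809 to 1180 in WT. Most of the WT level was Cd74, an MHC class II chaperone that epithelial cells can also make (17.9 to 537 TPM in CD1d-KO samples, 766 to 1100 TPM in the WT ones). Cd74 did not pass the test (adjusted p = 0.37 by DESeq2). Without Cd74, a sum added after the values were seen, the other 14 genes gave 22.8 to 29.9 TPM in CD1d-KO and 28.8 to 72.4 in WT, which overlap. Jchain, of plasma cells, fell from 153 ± 205 to 6.92 ± 6.83 (adjusted p = 0.00528), Itgam, an integrin of myeloid cells, from 1000 ± 135 to 758 ± 70.3 (adjusted p = 0.0121) and Cd8a, of T cells, from 25.4 ± 29 to 4.28 ± 2.58 (adjusted p = 0.0421). Other myeloid markers of the list were not called, with log2 fold changes of 0.52 ± 0.43 (SE) for Lyz2, -0.04 ± 0.51 for Fcer1g and -0.44 ± 0.29 for Cd68, and Itgam was counted more than the general leukocyte gene Ptprc (mean normalised counts of 880 and 75.4). Jchain was called under 15, Itgam under 12 and Cd8a under 7 of 17 alternative settings. Itgam was not called by edgeR (adjusted p = 0.0557) or without CD1d-KO sample 2, WT sample 1 or WT sample 2. Cd8a was not called by edgeR, with the count filter, with the replicate block or in 5 of 8 fits with 1 sample left out, and WT sample 1 (67.74 normalised counts) was its highest value by far, the next being 18.86. The stomach gene that rose was Atp4a, a subunit of the proton pump of parietal cells (0.93 ± 0.30), and the fourth leukocyte gene that fell was Cd3g (-2.46 ± 0.79). Both were named after their values were seen. Atp4b, the other subunit of the pump, averaged 0.478 normalised counts in CD1d-KO and 0.306 in WT. Cblif, also of the stomach list, averaged 4.07 in CD1d-KO and 7.31 in WT and was not called. Without CD1d-KO samples 1 and 2, 0 stomach and 2 leukocyte genes were called. With the stomach score of each sample as a covariate, an alternative chosen after the data were seen, Sprr2a3 had a log2 fold change of -1.70 ± 0.48 (SE). That score ran from -2.541 to 0.205 in CD1d-KO and from 0.767 to 3.292 in WT, without overlap. It follows the genotype, so this fit cannot tell the level of the stomach list from genotype. Whether the RNA of these genes came from stomach cells or from cells of the proximal small intestine was not tested. The part of leukocyte genes in the Sprr2a3 difference was not tested. In bulk samples, fewer cells of a type and less RNA per cell cannot be told apart.

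Among lineages of the intestine itself, goblet cell genes gave 0 calls of 8. Of 8 Paneth genes, 2 rose (median log2 fold change 0.60). Defa26, an alpha-defensin, rose from 263 ± 17.8 to 461 ± 154 (SD, n = 4; DESeq2 adjusted p = 0.00566) and Lyz1, lysozyme, from 19200 ± 2830 to 31800 ± 8990 (adjusted p = 0.0402). Defa26 was called under 15 of 17 alternative settings, not by edgeR (adjusted p = 0.0596). Lyz1 was called under 8 of 17, not with the replicate block and, when 1 sample was left out, only without CD1d-KO sample 2. Without CD1d-KO samples 1 and 2, 4 Paneth genes were called. In that fit Lyz1 had a log2 fold change of 0.99 and Defa26 of 1.04 (adjusted p = 5.9e-13 and 8.35e-08 by DESeq2). Of 11 villus enterocyte genes, 1 fell, the nucleoside transporter Slc28a2, from 653 ± 125 to 365 ± 24.7 (adjusted p = 7.66e-08). Stroma gave 0 calls of 2 tested and exocrine pancreas 0 of 1.

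Sprr2a is known as a gene that answers microbes and cytokines, and a list of 24 such genes was compared. Of 22 tested, 11 fell and 1 rose, with a median log2 fold change of -0.74. Duoxa2 and Duox2, the maturation factor and the enzyme that release hydrogen peroxide at the epithelial surface, fell from 713 ± 213 to 229 ± 15.3 and from 6550 ± 1570 to 2850 ± 346 normalised counts (SD, n = 4; DESeq2 adjusted p = 1.07e-13 and 2.11e-12). Nos2, the inducible nitric oxide synthase, fell from 2370 ± 553 to 640 ± 168 (adjusted p = 4.96e-11). All 3 were called under 17 of 17 alternative settings. The gene that rose was Reg3a, an antimicrobial lectin, at a log2 fold change of 0.83 ± 0.16 (SE), named after its values were seen. Without CD1d-KO samples 1 and 2, the list had 7 calls.

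A list of regenerative epithelium, where Sprr1a is often placed, had 4 of 14 tested genes lower and 0 higher (median -0.38). Ly6a, a marker of repairing epithelium, fell from 103 ± 23.8 to 31 ± 21.8 (-1.74 ± 0.38 SE, DESeq2 adjusted p = 0.00053). Clu, of revival stem cells, fell from 321 ± 303 to 48.4 ± 28.9 (adjusted p = 0.00776, not called without CD1d-KO sample 2), and Spp1, osteopontin, from 23.9 ± 28.1 to 0.24 ± 0.48 (adjusted p = 0.00023). The fourth was Anxa1. Ly6a was called under 16, Clu under 14 and Spp1 under 15 of 17 alternative settings. The list had 2 calls without CD1d-KO samples 1 and 2, where Clu had an adjusted p of 0.261 by DESeq2. With the stomach score as a covariate, 0 of the list were called and Clu had a log2 fold change of 0.06. That score did not overlap between the genotypes, so nothing is read from the lost calls.

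**Figure D3:**
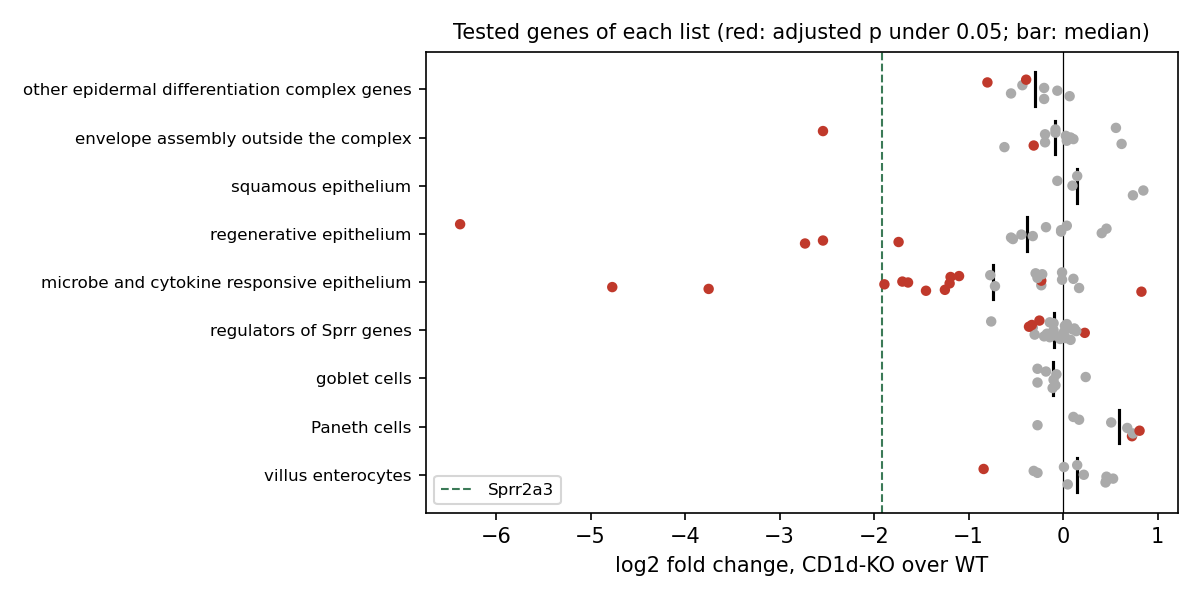
Log2 fold change of CD1d-KO over WT (x axis) for the tested genes of 9 lists (rows). Red points have an adjusted p under 0.05, black bars are list medians, and the dashed line is Sprr2a3 at -1.92. The microbe and cytokine list has 12 red points and the goblet and squamous lists have none.

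The genes whose profile over the 8 samples was most like that of Sprr2a3 were found among the 11720 genes that averaged 50 or more normalised counts. Likeness was the root mean square difference of log2(normalised count + 1), each gene centred on its mean. The closest were Pla2g4c (0.265), Duoxa2 (0.297), Trim46 (0.298), Nos2 (0.334) and Pla2g5 (0.38), and a gene that did not vary would have given 0.952. Pla2g4c, a phospholipase A2, had 107 to 212 normalised counts in CD1d-KO and 565 to 642 in WT. Trim46 had 19.7 to 29.3 in CD1d-KO and 75.6 to 113 in WT. A gene with a wide gap between genotypes scores well by that alone. For Sprr1a, the closest were Nox1, Pxdn, Duox2, Ccdc141 and Csf1, at 0.38 to 0.506 against 0.913 for a gene that did not vary, and they rest on 17 reads.

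**Figure D4:**
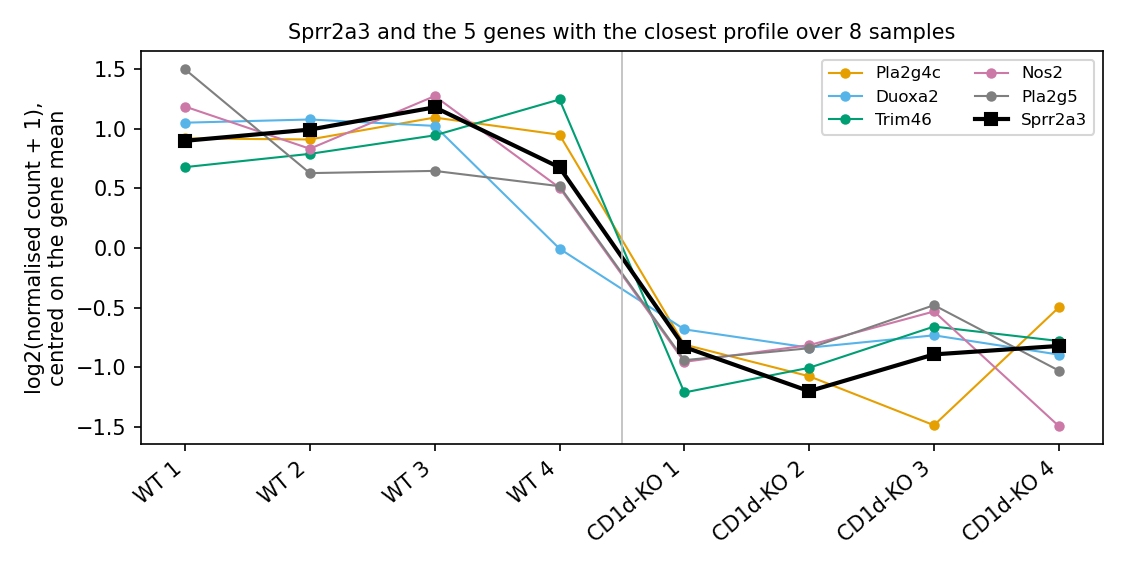
Centred log2(normalised count + 1) (y axis) of Sprr2a3 (black squares) and the 5 closest genes in WT and CD1d-KO samples (x axis). All 6 lie higher in the WT samples, and Duoxa2 in WT sample 4 (394 normalised counts) is the lowest of the WT points.

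Sprr2a3 lies 5.29 Mb from Cd1d1 on chromosome 3, the chromosome of the targeted locus. Of 107 tested genes between them, 13 were lower in CD1d-KO and 0 higher, with a median log2 fold change of -0.11. Over all genes tested, 2.48% were lower. Trim46, at 2.23 Mb from Cd1d1, and both S100 genes named above were among the 13. The smallest adjusted p of the 13 was that of Tpm3, at 3.07 Mb (-1.09 ± 0.06 SE, 2.05e-74 by DESeq2). The largest fall was that of Muc1, at 2.23 Mb (-3.37 ± 0.55). Tpm3 and Muc1 were named after their values were seen. Around Sprr2a3 itself, the nearest tested genes were S100a6 at 1.672 Mb on the Cd1d1 side and Tchh at 1.157 Mb on the other, and neither passed the test. Of the 15 tested genes within 2 Mb, 2 were lower and 0 higher. An effect of losing CD1d and an effect of DNA carried along with the targeted locus cannot be told apart in these samples. A difference in gut microbes cannot be told apart from these either. The paper states that its mice were not littermates. It says that this may alter their microbiota, and that such changes may add to the epithelial phenotype.

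**Figure D5:**
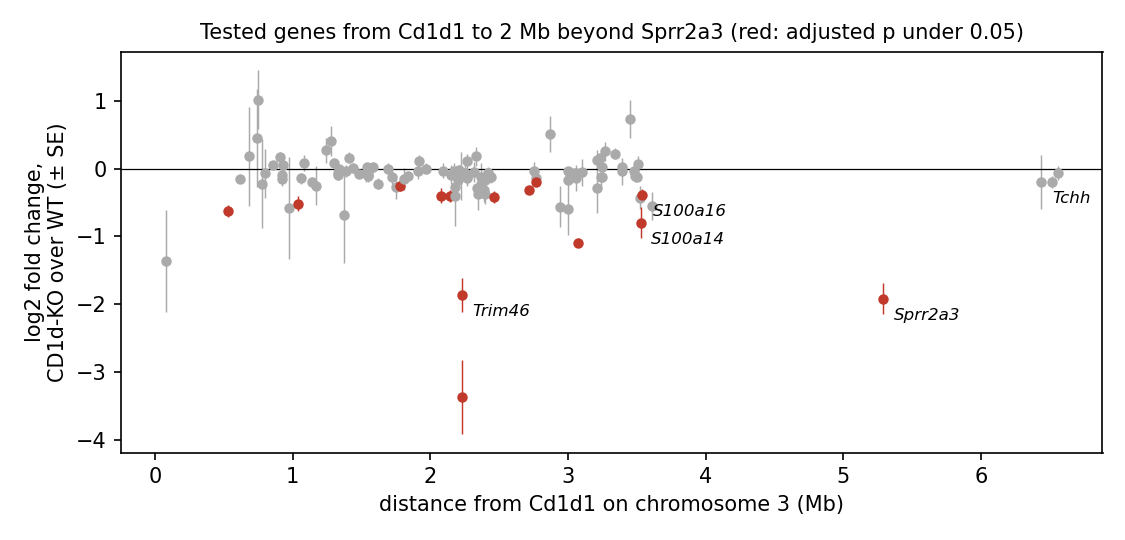
Log2 fold change of CD1d-KO over WT with SE (y axis) for tested genes, against distance from Cd1d1 on chromosome 3 (x axis, Mb). Red points have an adjusted p under 0.05. Sprr2a3, chosen on this comparison, is drawn red by the same rule, and no test is read from its colour. It lies at 5.29 Mb and stands at -1.92, with no other tested gene within 1.157 Mb.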

How the data were processed

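RNA was sequenced from 8 samples, 4 of each genotype, which were grouped and numbered by the sample labels. The authors deposited raw read counts per gene, without normalization. Per the file headers, read pairs were counted over exons with featureCounts 1.6.4 and an mm10 RefSeq annotation, using primary alignments, without strand and leaving out pairs that overlap several genes. The study's methods and the submitters' processing notes name HISAT2 and GRCm39, so the builds differ; table coordinates are mm10. There were 0 unused per-sample columns.

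Genotypes were compared with DESeq2 1.42.0 in R 4.3.3, genotype being the only term, with median-of-ratios size factors and default independent filtering, which left out genes under a mean of 4.33. The filtering was run in more than 1 way before the default over all 25239 genes was kept, since that is the design as written. Tuned to 0.05 it called 622 of 15446 genes, without genes at 0 it called 626 of 14643, and with both it called 622 of 15383. Adjusted p-values use the Benjamini-Hochberg method. TPM was computed from the deposited counts and exon lengths. The fit was tested on simulated data.

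The members, lists and motifs were chosen with earlier results of these data known. Named genes were the members, other Sprr genes with at least 10 counts, Cd1d1, the 3 most extreme called genes of each list and the 5 closest profiles to Sprr2a3 and to Sprr1a. Alternatives were edgeR 4.0.16, TMM factors, a filter of at least 10 counts in at least 4 samples, a replicate block, each sample left out, samples without Y-linked counts and, added after the data were seen, the filtering settings and the stomach score, the mean centred log2 level of the stomach list.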

Additional observations from a re-analysis of the deposited data

Results flagged for a closer look

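No sample stood far from its group for Sprr2a3 or Sprr1a. Over 56 groups of 4, those of Sprr2a3 and Sprr1a included, 7 had a sample with a wide gap to the nearest of the others. Wide means larger, as a share of the group's range, than Dixon's 95% critical value, and chance flags about 1 group in 20. All 7 were groups of other named genes. The closest profiles to Sprr1a were not checked, apart from Duox2. CD1d-KO sample 4 was high for the stomach genes Vsig1 (15.4 normalised counts, next 2.68) and Anxa10 (16.3, next 1.95), and it was the only CD1d-KO sample with a read of Spp1 (0.96, next 0). WT sample 3 was high for Muc6 (1300, next 484). WT sample 4 was low for Duoxa2 (394, next 805). WT sample 1 was high for Slc28a2 (838, next 614) and for Pla2g5 (746, next 413).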

How the results depend on the processing

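Sprr2a3 kept its direction under all 17 alternatives. Every WT sample was above every CD1d-KO sample, so leaving samples out could not reverse it. Sprr2a3 stayed at -1.92 under the filtering settings and the count filter. Its log2 fold change, and that of the summed Sprr2a copies, was -1.70 with the stomach score as a covariate, and from -1.83 to -2.0 with 1 sample left out. The difference of mean normalised count of Sprr1a was -2.37, and -1.50 to -3.15 with 1 sample left out; it has no value under edgeR, the count filter or the block. No alternative could give a value for Sprr2a1 or Sprr2a2. The 624 calls over all genes became 299 by edgeR, 372 in samples without Y-linked counts and 105 with the stomach score, and ranged from 324 (without CD1d-KO sample 2) to 646 with 1 sample left out; they were 406, 386 and 399 without WT samples 1, 2 and 3. The 38 called genes of the lists became 17 in samples without Y-linked counts and 5 with the stomach score, and ranged from 25 (without CD1d-KO sample 2) to 38. The causes were not tested, and the stomach score did not overlap between the genotypes. The 3 other filtering settings gave 622, 626 and 622 calls. Samples with the same number are not said to share more than it, and their deviations correlated at 0.285, 0.025, 0.221 and 0.004. Across other pairs the correlation ran from -0.354 (CD1d-KO sample 2 with WT sample 3) to 0.355 (CD1d-KO sample 4 with WT sample 3). Whether samples of the same experiment vary together was not tested. With the replicate block, Sprr2a3 had a log2 fold change of -1.91 ± 0.31 (SE), with 565 calls over all genes and 35 in the lists. Depth limits Sprr1a, where 1 read is a large part of the count.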
